A study of Homo sapiens with 7 samples.

Results

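In H1 cells differentiated to anterior foregut endoderm, 1417 stretches of chromatin far from gene ends carried a strong ATAC-seq peak in both libraries of that stage and no peak at all in the libraries of the other 3 stages. In ATAC-seq the Tn5 transposase cuts DNA where it is accessible and leaves adapters for sequencing, and H1 is a widely used human embryonic stem cell line. The groups were anterior foregut endoderm (hAFE, 2 libraries), stem cells before differentiation (hESC, 2 libraries), the earlier definitive endoderm (hDE, 2 libraries) and the later pharyngeal foregut endoderm (hPFE, 1 library). All came from this 1 line and its directed differentiation, no library carries a genetic change by its labels, and the days and agents of the protocol are not stated in the labels. Only hESC and hDE carry the label re-analyzed, with identifiers of an earlier series, so that stage and origin of the library cannot be told apart there.

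The regions were chosen from the peak lists themselves. A strong peak was one numbered at most 80000 in its library, where numbering starts at the lowest p. Strong peaks that overlapped, over the 7 libraries and over chromosomes 1 to 22 and X, made 167407 regions, of which 149700 were distal, meaning over 1 kb from both ends of every protein-coding gene. A distal region was kept where it overlapped a strong peak in both hAFE libraries and no deposited peak of any strength in the other 5. The 1417 regions kept were 0.947% of the distal regions. Without hAFE replicate 1, hAFE replicate 2 or the hPFE library, the same choice kept 3026, 4324 or 2835 regions. The choice fixes the difference between hAFE and the other stages, so the levels in the chosen regions are a description and were not tested.

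Distal open regions include enhancers, stretches of DNA that bind transcription factors and can act on genes at a distance. Definitive endoderm is the germ layer that forms the gut tube, and the anterior foregut is the part of that tube from which the pharynx, thyroid, thymus, parathyroid glands, lungs and oesophagus arise. Forkhead (FOXA) and GATA factors are known to bind and open distal chromatin in endoderm, and foregut patterning uses FGF, BMP, WNT, Hedgehog and retinoic acid signals.

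Sequence could be shown where a region overlapped a promoter window of RefSeq (GRCh38.p14, from 250 bases before to 50 bases after a gene's start). Of 34961 such windows, 8 were overlapped by 7 of the regions, and 7 of the 8 belonged to genes of long noncoding RNAs (lncRNAs). The forkhead motif TGTTTAC stood in 4 of the 8 windows, in 3 regions, on either strand. LINC01863 has overlapping windows that hold the same match, which was counted in each, so there were 3 separate matches. The motif stood in 3.42% of the 34789 distinct promoter windows, which are not limited to lncRNA genes. The GATA motif AGATAA stood in 1 of the 8, against 10.4% of all windows, and the TEAD motif GGAATGT in 3, against 3.48%. These 3 were picked from all motifs searched, which are listed with the processing below. Of the others, the nuclear receptor and the MEIS and TGIF motifs stood in 3 windows each, and the CTCF and the ZEB and SNAI motifs in 2 each. The E-box, HNF1, CEBP, EGR and WT1 and 1 NKX2 motif (CACTTGA) stood in 1 each. All the rest stood in 0, among them both SOX motifs and those for OCT, OTX, T-box, AP-1, TFAP2 and KLF. The windows below are shown because they hold the forkhead or GATA motif inside an hAFE-only region. Matches to the forkhead, GATA and TEAD motifs are in capitals, 5′ to 3′ on the gene's strand. LOC643441 lies at chr1:113206204-113206503 on the minus strand, the LINC01863 window at chr5:173642120-173642419 on the plus strand, LOC105377209 at chrX:52265882-52266181 on the minus strand and PARP11-AS1 at chr12:3898801-3899100 on the plus strand.
LOC643441: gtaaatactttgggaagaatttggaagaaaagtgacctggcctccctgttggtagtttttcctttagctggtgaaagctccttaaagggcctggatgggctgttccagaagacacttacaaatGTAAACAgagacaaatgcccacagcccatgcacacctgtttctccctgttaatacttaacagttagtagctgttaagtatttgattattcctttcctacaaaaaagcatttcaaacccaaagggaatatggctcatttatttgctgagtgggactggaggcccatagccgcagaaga
LINC01863: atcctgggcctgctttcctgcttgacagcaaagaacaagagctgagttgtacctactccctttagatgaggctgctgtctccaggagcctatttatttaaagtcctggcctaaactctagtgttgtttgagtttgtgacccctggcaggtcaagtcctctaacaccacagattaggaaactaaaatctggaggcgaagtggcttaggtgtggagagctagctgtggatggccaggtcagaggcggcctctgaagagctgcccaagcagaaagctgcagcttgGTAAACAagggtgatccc
LOC105377209: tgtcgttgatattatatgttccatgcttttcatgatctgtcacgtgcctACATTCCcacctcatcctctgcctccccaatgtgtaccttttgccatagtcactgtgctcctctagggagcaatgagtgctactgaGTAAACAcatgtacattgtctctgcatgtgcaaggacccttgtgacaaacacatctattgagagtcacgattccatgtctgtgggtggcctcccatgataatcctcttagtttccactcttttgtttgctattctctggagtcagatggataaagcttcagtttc
PARP11-AS1: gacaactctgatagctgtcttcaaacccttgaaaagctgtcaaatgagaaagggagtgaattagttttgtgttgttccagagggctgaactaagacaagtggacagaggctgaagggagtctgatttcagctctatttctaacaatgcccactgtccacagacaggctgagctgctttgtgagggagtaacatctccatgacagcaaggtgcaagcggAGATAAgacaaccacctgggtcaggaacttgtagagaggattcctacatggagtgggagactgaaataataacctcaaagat

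The forkhead match in LINC01863 lay 65 and 15 bp from the 2 hAFE summits of its region, where the peak was 11.1 and 4.57 times its local background in replicates 1 and 2. In LOC643441 the match lay 225 and 215 bp from the summits, with a fold over background of 8.85 and 7.77. In LOC105377209 it lay 165 and 157 bp away, with a fold of 6.81 and 6.18. The region over PARP11-AS1 had folds of 10.3 and 6.18. A match is a run of letters and does not show that a factor was bound, and 7 regions are too few to describe the 1417.

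The regions were short and of moderate strength in both hAFE libraries. Their width ran from 203 to 1151 bp with a median of 476 bp, against 686 bp for the other 33970 distal regions that were strong in both hAFE libraries. The authors give for each peak how many times its summit exceeds a background local to that peak, called the fold below. That fold ran from 3.78 to 28.0 in hAFE replicate 1 with a median of 11.3, and from 3.07 to 26.2 in replicate 2 with a median of 7.81. The other distal regions strong in both hAFE libraries had medians of 12.4 and 8.94. The hAFE-only regions were thus narrower, and lower in median fold in both libraries. Width is that of the merged region, so the choice itself favours narrow ones. Only hAFE peaks can make up an hAFE-only region, while strong peaks of the other stages can widen the others. How much of the difference this makes was not tested. The median width was 549 bp for hESC-only, 713.5 bp for hDE-only and 380.5 bp for hPFE-only regions. Among the strongest peaks they were few: 37 of them, or 2.61%, had both best peaks numbered at most 20000, against 16.1% of the other distal hAFE regions.

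Heights above the genome-wide background are set here beside the weakest peaks that the other libraries listed. The choice asked for strong hAFE peaks, so these heights are a description. They say nothing of the signal at these sites in the other libraries. The pileup is the count at the summit, solved here from the deposited fold and p. It ran from 25 to 221 in hAFE replicate 1 and from 28 to 192 in replicate 2. This was 11.3 to 99.5 times the genome-wide background of 2.22 counts in replicate 1 and 7.27 to 49.9 times that of 3.85 counts in replicate 2. That background is the commonest local background solved for the 20000 weakest listed peaks of each library. In the 5 libraries of the other stages that background lay between 2.11 and 7.94 counts, and their 20000 weakest listed peaks had a median summit of 2.62 to 3.90 times it. Absence from a list is therefore not absence of signal. The list of hDE replicate 2, the deepest library, ended at a −log10 p of 8.86, and that of hESC replicate 2 at 4.77, against 2.23 to 2.72 in the other 5 libraries, so that weak peaks in those 2 could go unlisted.

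**Figure D1:**
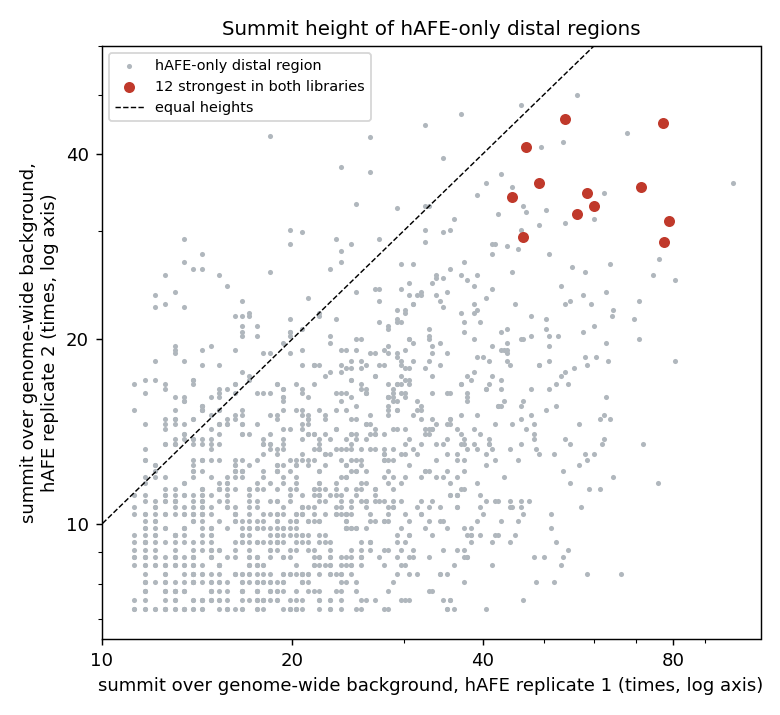
Summit height of each of the 1417 hAFE-only distal regions, as times the genome-wide background, in hAFE replicate 1 (x axis) and replicate 2 (y axis), both on log axes, with 1 point per region and the line of equal heights dashed. Most points lie below the line (medians 21.6 times in replicate 1 and 11.4 times in replicate 2), and the 12 regions strongest in both libraries are drawn in red.

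The summits of the 2 hAFE libraries mostly lay close together, with a largest gap of 479 bp. The choice asked for strong peaks of both in 1 region, which itself bounds this gap. The summits of the 2 replicates lay a median of 14 bp apart, and 1304 regions, or 92.0%, had them within 50 bp, against a median of 12 bp and 92.4% in the other distal hAFE regions. The strength of a region was less alike: across regions, Spearman's rho between the folds of the 2 libraries was 0.446, against 0.641 in the other distal hAFE regions. These are values across regions of the same 2 libraries, and regions are not independent replicates. The fold was higher in replicate 1 in 85.7% of the hAFE-only regions and in 85.0% of the others.

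Of the 12 regions strongest in both hAFE libraries, by the worse of their peak numbers, 6 lay over 100 kb from every gene end. A region is named here by the protein-coding gene with the nearest end, which need not be a gene it acts on. The first lay at chr16:52649618-52650291, between genes and 101816 bp from TOX3, which encodes a nuclear protein with an HMG box. Its summit pileup was 171 and 173 counts in hAFE replicates 1 and 2, with folds of 16.9 and 14.1. No peak was listed there in the hESC, hDE or hPFE libraries. The second lay inside FGD4, an exchange factor for the GTPase CDC42, with folds of 21.7 and 18.9. The third lay 48513 bp from UNC5C, a netrin receptor, with folds of 19.3 and 18.9.

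The highest fold in hAFE replicate 1 among all of the regions belonged to chr20:7085277-7085871, 305031 bp from BMP2, a secreted ligand of the BMP pathway. Its folds were 28.0 and 20.1, its summit pileups were 175 and 120 counts, and both replicates placed the summit at the same base. Regions inside CSRNP3, CRYBB2 (a lens crystallin), SCG3 (a secretory granule protein) and TRPM6 (a magnesium channel) followed, with folds in replicate 1 between 20.1 and 24.8 and in replicate 2 between 15.1 and 20.9. The remaining 4 of the 12 lay between genes. They were 191470 bp from DNAJB9, a chaperone of the endoplasmic reticulum, 588283 bp from HS3ST5, a heparan sulfate sulfotransferase, 906597 bp from LRATD1 and 1161105 bp from ADGRB3, an adhesion receptor.

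Regions chosen with 1 hAFE library alone mostly had a peak of any strength in the other, which the choice had not used. Fewer had a strong one. Of 4276 distal regions strong in hAFE replicate 1 and without a peak in the other stages, 79.8% had a peak in replicate 2, and of 3002 chosen in the same way with replicate 2, 89.2% had a peak in replicate 1. Among all distal strong regions of the same library the shares were 94.7% and 96.8%. A strong peak, which the choice of the 1417 asks for, stood in the other library in 33.1% and 47.2% of the chosen regions. Among all distal strong regions that share was 67.7% and 73.2%. The lower share for a peak of any strength remained when regions of like peak number were set side by side. Among the weakest, numbered 60001 to 80000, 70.2% of the regions chosen with replicate 1 were found again, against 90.2% of its other distal regions. Among the strongest, numbered up to 20000, the shares were 99.0% and 99.9%. In 3257 more regions 1 hAFE library had a strong peak and the other a weaker one, with no peak in the other stages, and in 1187 the second hAFE library had none.

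**Figure D2:**
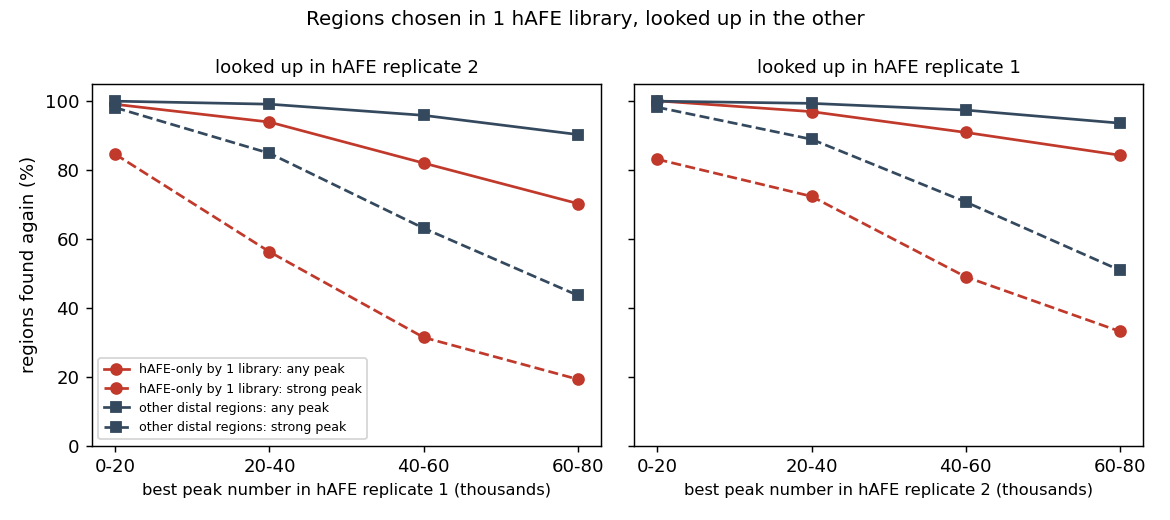
Share of regions (%, y axis) chosen in 1 hAFE library and found again in the other, by the best peak number in the choosing library, divided by 1000 (x axis), with replicate 1 as the choosing library on the left and replicate 2 on the right. Red circles are regions without a peak in the other stages, dark squares are all other distal regions, solid lines count any peak and dashed lines a strong peak; the red lines lie below the dark ones (70.2% against 90.2% for any peak at the weak end on the left), apart from any peak in the strongest bin on the right.

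The same choice made for the other stages gave 1357 distal regions strong in both hESC libraries and absent elsewhere (0.906% of distal regions), 3782 for hDE (2.53%) and 11346 for hPFE (7.58%). The hPFE number rests on a strong peak in 1 library and is not comparable with those that need 2. Regions chosen with 1 hESC library were found again by a peak of any strength in the other in 70.0% and 74.7% of cases. Those chosen with 1 hDE library were found again in 99.5% and 83.0%, beside the 79.8% and 89.2% of hAFE.

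Peaks of the other stages lay at a range of distances from the regions. In each of the 5 libraries of the other stages, between 189 and 231 of the 1417 regions, or 13.3% to 16.3%, had a listed peak within 1 kb, and the median gap to the nearest peak ran from 3930 to 4595 bp. In 856 regions, or 60.4%, none of the 5 libraries had a peak within 1 kb. In 48 regions, or 3.39%, none had a peak within 10 kb. These distances were not computed for other regions, so they cannot be called particular to the hAFE-only ones.

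Values on either side of the limits were close. Members just inside the strong limit lay nearest to CNTN6 and TUB, with worse peak numbers of 79953 and 79978. Just outside stood regions near PMP22, TBX1 and CHST9, at 80022, 80033 and 80043. The region near TBX1, the gene of a T-box factor of the pharynx, lay at chr22:19740585-19741279 and 15424 bp from the gene, with folds of 7.75 and 3.95 and no peak in the other stages. At the distance limit, members lay 1076, 1084 and 1146 bp from an end of GPR142, RNF133 and PRPH2, and regions left out lay 977, 986 and 991 bp from NOC3L, FGL1 and LMCD1. In all, 36 regions had the hAFE-only pattern within 1 kb of a gene end.

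The regions lay farther from genes than other distal hAFE regions. Their median distance to the nearest end of a protein-coding gene was 69858 bp, against 38316 bp in the other distal regions strong in both hAFE libraries. Within 100 kb of a gene end lay 835 of them, or 58.9%, against 72.3% of the others, and 102 lay over 500 kb from every gene end. Inside a protein-coding gene lay 627 regions, or 44.2%, against 47.2%, and the remaining 790 lay between genes. A lncRNA gene was overlapped by 265, or 18.7%, against 19.7%. Distance did not set hAFE apart from all other stages, since the medians were 63143 bp for hESC-only regions, 82227 bp for hDE-only regions and 72899 bp for hPFE-only regions. Exons, introns and untranslated regions could not be told apart, because the gene table used gives spans only.

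Chromosome X held a larger share of the hAFE-only regions than of other open regions. Of the 1417 regions 63 lay on X, or 4.45%, against 2.27% of all other distal regions. Expressed the other way, 8.33% of the distal X regions strong in both hAFE libraries were hAFE-only, against 4.00% over all chromosomes, and the next highest shares were 5.31% on chromosome 13 and 5.28% on chromosome 4. The lowest was 1.47% on chromosome 19, a chromosome dense in genes, which held 12 regions. The share on X was 3.02% for hESC-only, 4.39% for hDE-only and 2.59% for hPFE-only regions, so that hDE had nearly the same share as hAFE. Over all strong distal regions, 2.08% and 2.36% lay on X in the hAFE libraries and 1.77% to 2.44% in the other 5 libraries. Of all listed peaks, on which absence rests, 2.20% and 1.98% lay on X in the hAFE libraries, 1.65% and 2.24% in those of hESC, 1.70% and 3.04% in those of hDE, and 1.45% in the hPFE library. The part of these differences in the share of hAFE-only regions on X was not tested.

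**Figure D3:**
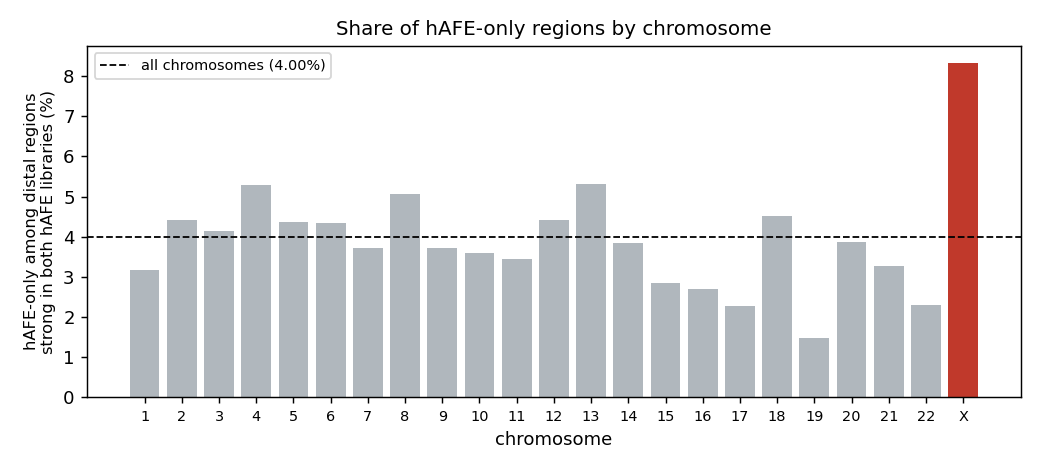
Share of distal regions strong in both hAFE libraries that were hAFE-only (%, y axis) for each chromosome (x axis), with the share over all chromosomes (4.00%) dashed and chromosome X in red. X stands highest at 8.33% and chromosome 19 lowest at 1.47%.

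Most of the regions stood alone, and the group with the most members lay beyond JAG1. With gaps of at most 50 kb, 1292 regions had no other within reach, 56 pairs and 3 groups of 3 formed, and 1 group held 4, so that 125 regions (8.82%) lay in groups. The group of 4 covered 59337 bp at chr20:10746768-10806104, between genes and nearest to JAG1, which encodes a Notch ligand. Its 4 regions, at 72769, 103656, 126074 and 131782 bp from JAG1, had folds of 17.0, 13.0, 10.4 and 9.77 in hAFE replicate 1. In replicate 2 their folds were 12.8, 13.1, 9.39 and 7.03. Each of the 4 was a strong peak in both hAFE libraries and unlisted in hESC, hDE and hPFE. One more region lay inside JAG1 at chr20:10655755-10656100, with folds of 7.001 and 6.23.

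The next groups held 3 regions each. One, near CAND1 (a regulator of cullin ubiquitin ligases), covered 25878 bp at chr12:67447030-67472907, with folds of 9.70, 8.95 and 9.37 in hAFE replicate 1 and of 8.50, 8.56 and 6.13 in replicate 2. The other, near LUZP4, covered 26198 bp at chrX:115402304-115428501. The third group of 3, near ICOS, was spread over 80910 bp.

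By the nearest end within 100 kb, 835 regions were assigned to 792 genes, which is 5.11% of the 15490 genes with any distal strong region. Of these genes 750 had 1 hAFE-only region, 41 had 2 and 1 had 3. Without hAFE replicate 1 or 2 the genes numbered 1525 or 2340. The gene with 3 was DZIP1, a protein of the primary cilium base that takes part in Hedgehog signalling. Of the DZIP1 regions 2 lay inside its neighbour CLDN10, a tight junction claudin, and had folds of 9.25 and 7.59 in hAFE replicate 1 and of 7.45 and 6.18 in replicate 2. The region inside DZIP1 itself had folds of 8.44 and 11.1.

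Among genes with 2 regions were UNC13C (synaptic vesicle priming), TPBG (a glycoprotein of the cell surface), COL5A2 (a fibrillar collagen), DOCK11 (an exchange factor for CDC42), PIGN (GPI anchor synthesis) and LIPC (hepatic lipase). The stronger UNC13C region, at chr15:54664210-54665143, had folds of 19.9 and 16.4 and summit pileups of 123 and 101 counts. The stronger TPBG region, at chr6:82380227-82380507, had folds of 18.9 and 14.4. Both DOCK11 regions lay inside the gene on X, with folds of 16.3 and 15.6 at one and of 10.8 and 11.8 at the other. Both LIPC regions lay inside that gene, with folds of 13.3 and 7.23 and of 10.7 and 10.4.

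Genes of the FGF pathway carried hAFE-only regions in 6 of 24, or 25.0%, against 5.11% of all genes. In regions this was 7 of the 272 distal regions assigned to the list, or 2.57%, against 0.862% of the 96921 assigned to any gene. The genes were FGF10 and FGF20, which encode ligands, SPRY1, SPRED1 and SPRED2, which encode intracellular inhibitors of the pathway, and FLRT2, a membrane protein. SPRED1 had 2 regions, and the stronger, at chr15:38206232-38206611, had folds of 12.5 and 8.89 in hAFE replicates 1 and 2. The FGF10 region, at chr5:44455759-44456179 and 66339 bp from the gene, had folds of 15.8 and 7.42. The SPRY1 region, 16603 bp from the gene, had folds of 6.14 and 8.18, and the region inside SPRED2 had 9.39 and 7.02. By the same assignment, hESC-only regions fell to 3 genes of the list (12.5%, against 5.09% of all genes), hDE-only regions to 3 (12.5%, against 11.4%) and hPFE-only regions to 13 (54.2%, against 28.5%). Counted by genes, the share of the list thus lay above that of all genes for each of the 4 stages. Such shares depend on how many distal regions a gene has. For hAFE-only regions they rose from 1.08% of genes with 1 or 2 distal regions to 18.6% of those with at least 21. In regions, 3, 3 and 22 of the 272 were open only in hESC, hDE and hPFE. The matching shares of all assigned regions were not computed for these stages, so no excess by regions can be read there. The members and lists were chosen with results of these data known, so these shares are descriptions.

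Hedgehog and Notch genes carried hAFE-only regions in 5 of 28, or 17.9%, in 6 of 289 regions, or 2.08%. Besides the ligand gene JAG1 with 2, they were HHIP, a decoy receptor of Hedgehog ligands, the coreceptors CDON and BOC, and the transcription factor GLI2. The HHIP region, at chr4:144750123-144750760 and 4852 bp from the gene, ranked first on the list by the worse of its peak numbers. It had folds of 16.2 in both replicates and summit pileups of 78 and 92 counts. The CDON region had folds of 9.06 and 10.7, and the one inside GLI2 had 7.51 and 5.23. The list was assigned hESC-only regions in 4 genes (14.3%, against 5.09% of all genes), hDE-only regions in 2 (7.14%, against 11.4%) and hPFE-only regions in 5 (17.9%, against 28.5%). Counted by genes, the list thus lay above the share of all genes for hESC as well as for hAFE.

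Other signalling lists lay nearer to the share of all genes. BMP and Nodal genes had hAFE-only regions in 4 of 37 (10.8%), in 1.06% of their regions. These were NOG, which encodes a BMP antagonist, BAMBI, a pseudoreceptor, and the receptors BMPR2 and ACVR2A, with folds in replicate 1 between 9.42 and 11.99. WNT genes had them in 3 of 40 (7.50%), in 0.842% of their regions, namely the receptors FZD1 and ROR2, the last with 2, and RSPO2. The region inside RSPO2, which encodes a WNT agonist, ranked first of those on all lists by the worse of its peak numbers, with folds of 20.8 and 18.1. Hippo genes had them in 3 of 26 (11.5%), in 0.929% of regions, at WWC1 (an upstream regulator), TEAD4 (a transcription factor) and STK4 (a kinase), and the retinoic acid pathway in 1 of 21, at CRABP2, a carrier of retinoic acid.

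Epithelial adhesion and polarity genes had hAFE-only regions in 5 of 24, or 20.8%, in 1.70% of their regions. Among them were OCLN, which encodes a tight junction protein, PARD3, a polarity protein, IGSF11, an adhesion molecule, and PLCB1, a phospholipase, with 2. PLCB1 and IGSF11 entered this list because earlier results of these data had named them, which raises its count. Without them, an alternative added after seeing the data, it had 3 of 22 (13.6%), in 1.00% of 299 regions, near the 0.862% of all assigned regions. The OCLN region had folds of 7.24 and 4.37 in hAFE replicates 1 and 2. The list was assigned hESC-only regions in 1 gene (4.17%), hDE-only regions in 5 (20.8%) and hPFE-only regions in 14 (58.3%), beside the 5.09%, 11.4% and 28.5% of all genes. In regions these were 1, 7 and 27 of the 352 of the full list. Shares of all assigned regions were not computed for these stages, so no excess by regions can be read there.

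Endoderm transcription factor genes had an hAFE-only region in 1 of 20, or 5.00%, close to the 5.11% of all genes. The gene was GATA4, with folds of 11.9 and 7.29. Anterior foregut and pharyngeal genes had them in 1 of 34 (2.94%), at EYA1, a transcriptional cofactor of pharyngeal development. EYA1 had 2 regions inside it, with folds of 11.8 and 7.27 and of 9.90 and 4.78. These were 2 of the 511 regions of the foregut list, or 0.391%, which is below the 0.862% of all assigned regions. FOXA2, GATA6, SOX17, SOX2, EOMES, HHEX, OTX2, PAX9, PAX1, TBX1, ISL1, HOXA3, NKX2-1 and NKX2-3 had 0 within the 100 kb of the assignment. Regions beyond that limit were not counted for any gene. An hAFE-only region at chr3:181921376-181922002 was nearest to SOX2, at 206940 bp, with folds of 13.3 and 11.4 in hAFE replicates 1 and 2. The foregut list was assigned hESC-only regions in 6 genes (17.6%), hDE-only regions in 12 (35.3%) and hPFE-only regions in 18 (52.9%), where the shares of all genes were 5.09%, 11.4% and 28.5%. These shares of genes depend on the number of distal regions per gene and are not comparable with the 0.391% of regions. In regions they were 9, 18 and 28 of the 511, and shares of all assigned regions were not computed for these stages.

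The remaining lists had at most 2 genes each. Mesenchyme and fibroblast genes had an hAFE-only region in 1 of 28 (PRRX1, a mesenchymal transcription factor), coelomic and kidney genes in 1 of 15 (WT1), and liver, pancreas and hindgut genes in 1 of 24 (TTR, a carrier of thyroid hormone). Pluripotency genes had them in 2 of 25 (KLF4 and JARID2) and housekeeping genes in 1 of 16 (IPO8). Neural and ectoderm genes had 0 of 24, with 220 distal regions. With an hESC-only region were 4 of them (16.7%), with an hDE-only region 3 (12.5%) and with an hPFE-only region 11 (45.8%), beside the 5.09%, 11.4% and 28.5% of all genes. In regions these were 4, 3 and 14 of the 220, without a computed share of all assigned regions to set beside them. The WT1 region, 11043 bp from the gene, had folds of 14.5 and 7.40.

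**Figure D4:**
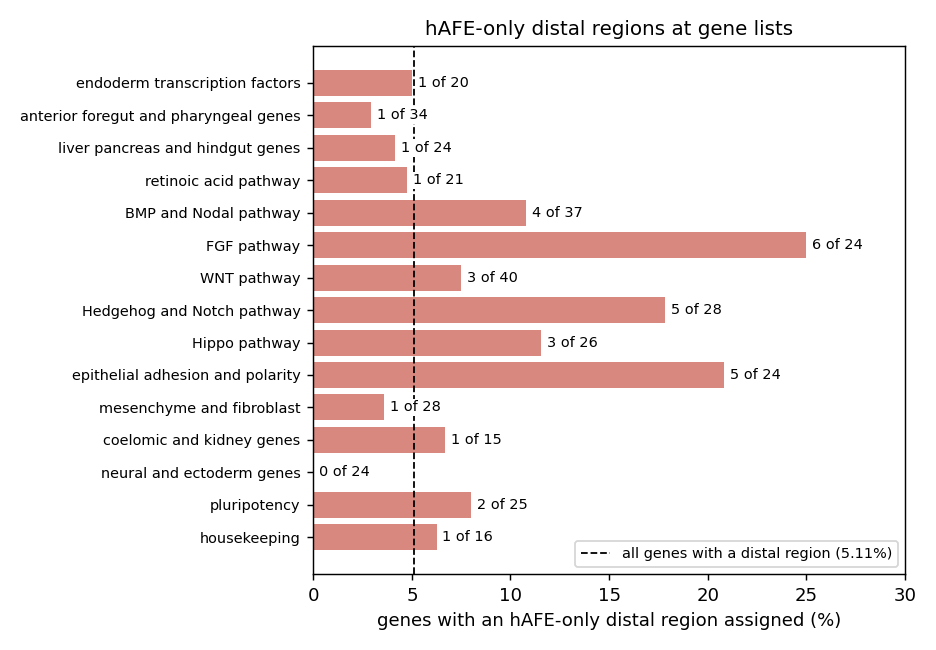
Share of the genes with a distal region that were assigned an hAFE-only region (%, x axis) for 15 gene lists (rows), with the counts beside the bars and the share over all such genes (5.11%) dashed. The FGF list stands highest at 25.0% and the neural list at 0.

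With the chosen regions left out, open chromatin around them was not measurably denser in hAFE than in other libraries. The counts leave out all hAFE-only regions but keep those open only in another stage, which lowers hAFE alone. The comparison thus cannot tell whether open chromatin as a whole was denser there. The mean number of other strong regions within 100 kb of an hAFE-only region was 4.82 and 4.44 in the hAFE libraries, 4.33 and 4.37 in the hESC libraries, 4.27 and 5.04 in those of hDE and 4.44 in the hPFE library. The groups overlapped, and the highest value belonged to hDE replicate 2. The hAFE mean was 4.63 ± 0.264 (SD, n = 2) and that of the other libraries 4.49 ± 0.314 (SD, n = 5), a difference of 0.142 (two-sided exact permutation test over 21 divisions, p = 0.762, where the smallest possible is 0.0476). Without hAFE replicate 1 the difference was -0.127 and turned its direction, and with strong peaks numbered at most 40000 it was -0.0397. The labels do not say that replicates are separate cultures, so this p covers no more than library-to-library spread, which may be technical. Around the other distal hAFE regions the means were higher in each library, at 5.92 and 5.40 in hAFE and between 5.28 and 5.85 in the other 5.

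**Figure D5:**
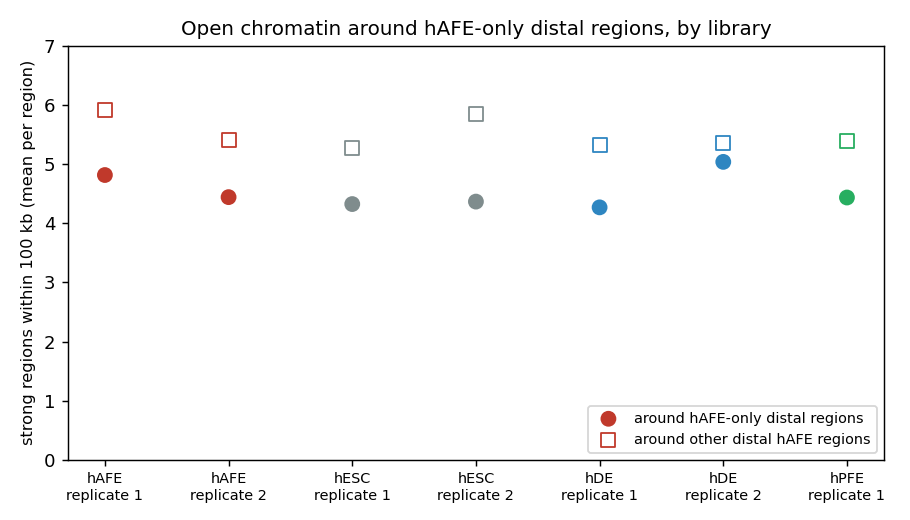
Mean number of strong regions within 100 kb (y axis) in each of the 7 libraries (x axis), around the 1417 hAFE-only distal regions, themselves left out (filled circles), and around the other distal regions strong in both hAFE libraries (open squares). The hAFE circles, at 4.82 and 4.44, lie within the range of the other libraries, from 4.27 to 5.04.

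Gene by gene, 45 of the 792 genes with an hAFE-only region, or 5.68%, had more other strong regions in both hAFE libraries than in each of the other 5. Among the 14698 genes without one the share was 3.50%, and over all genes it was 3.61%. Fewer in both hAFE libraries than in each other library were seen for 1.89% of the 792, against 1.32% of the genes without and 1.35% of all. These counts too leave out hAFE-only regions and keep those open only in another stage. Genes with an hAFE-only region had more distal regions in all. In 5 classes of genes by that number, the share with more in hAFE ran from 3.28% to 8.33% with an hAFE-only region and from 2.75% to 4.70% without, and was higher with one in 3 of the 5 classes. DOCK11 had 3 and 4 other strong regions in the hAFE libraries, against 2 and 2 in the hESC libraries, 2 and 1 in those of hDE, and 1 in the hPFE library. CAPN13, a calpain protease gene, had 5 and 5, against 2 and 2 in the hESC libraries, 4 and 2 in those of hDE, and 1 in the hPFE library. LIPC had 9 and 6, against 4 and 5 in the hESC libraries, 4 and 4 in those of hDE, and 5 in the hPFE library. JAG1 did not follow this, with 6 and 4 in hAFE, against 7 and 6 in the hESC libraries, 5 and 8 in those of hDE, and 8 in the hPFE library. Of the other genes named by rule for the most hAFE-only regions, CSNK2A3 followed it. DZIP1, UNC13C, TPBG, COL5A2, PLCB1, PIGN and HTT did not, so that most of these genes did not follow it.

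The stage labels were set against peaks near marker genes. The counts leave out hAFE-only regions and keep those open only in another stage. EYA1 had 2 hAFE-only regions, so this lowers the hAFE counts of the pharyngeal set. The stem cell genes POU5F1, NANOG and DPPA4 together had 6 and 5 other strong regions in hAFE, against 13 and 15 in the hESC libraries, 9 and 9 in those of hDE, and 5 in the hPFE library. The endoderm genes FOXA2 and GATA6 had 12 and 14 in hAFE, against 9 and 12 in the hESC libraries, 22 and 20 in those of hDE, and 11 in the hPFE library. The definitive endoderm genes EOMES, CXCR4 and SOX17 had 21 and 24 in hAFE, against 20 and 15 in the hESC libraries, 26 and 28 in those of hDE, and 11 in the hPFE library. The pharyngeal genes PAX9, PAX1, TBX1 and EYA1 had 21 and 18 in hAFE, against 20 and 23 in the hESC libraries, 22 and 28 in those of hDE, and 27 in the hPFE library, so that this set did not set hPFE apart from hDE. The anterior foregut genes SOX2, OTX2 and ISL1 had 27 and 26 in hAFE, against 23 and 29 in the hESC libraries, 21 and 20 in those of hDE, and 15 in the hPFE library, so that this set did not set hAFE apart from hESC.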

How the data were processed

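ATAC-seq peaks of 7 libraries of H1 cells were analysed, called per library and not on pooled libraries. The submitters' processing notes name hg38 and DiffBind (no version). The aligner and peak caller are not stated there or in the labels. The deposited peaks carry the authors' fold enrichment (a ratio to a local background), −log10 p and −log10 q (q-value), a display score that was not used, and the position of the summit. Peak names run to 300000 in every library, and 298508 to 299374 peaks remain.

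Groups and replicate numbers came from the sample titles. Regions were merged at an overlap of at least 1 bp. Genes were the 19974 protein-coding genes of RefSeq (GRCh38.p14). A region was assigned to the nearest gene end within 100 kb. Summit pileups were solved by taking fold as the pileup over the local background, with 1 added to both, and p as a Poisson tail. This form is not stated in the labels. Pileups were recovered in 100% of regions within 0.001 of −log10 p, and the solver was tested on simulated data. An exact permutation test over libraries was applied to the open chromatin around the regions. Python 3.11.15, pandas 2.3.3 and SciPy 1.17.1 were used. Depth is not given as a read number, and no interval that needs it was computed. The regions, the 15 gene lists (397 genes) and the tests were chosen with earlier results of these data known. Named by rule were the 12 strongest regions by their worse peak number and those nearest to each limit. So were the 3 densest groups, the genes with the most regions and up to 4 genes per list. Density was read as the number of regions in a group, while some pairs were denser by regions per length. The other members of lists and the ICOS group were named after their values were seen. Some items that the rule names are not reported here.

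A genome was not used here, so motifs and GC content of the regions themselves were not computed, and RefSeq promoter windows took their place. The motifs searched in these on both strands, each with its share of the 34789 distinct windows, were AGATAA for the GATA family (10.4%), TGTTTAC for forkhead (3.42%), ACAATGG for SOX (3.16%) and ACAAAGG for SOX (5.34%), ATGCAAAT for OCT (1.77%), TAATCCC for OTX (1.95%), AGGTGTGA for T-box (0.986%), TGANTCA for AP-1 (7.69%), GGAATGT for TEAD (3.48%), GTTAATNA for HNF1 (2.45%), CAAAGGTCA for HNF4 (0.405%), AGGTCA for nuclear receptor element (13.8%), AGGNGGC for CTCF (35.8%), CAGCTG for E-box (17.9%), CAGGTG for ZEB and SNAI (20.6%). They were also CTTTGAT for TCF (2.64%), TAATTA for homeobox (4.86%), CACTTGA for NKX2 (2.49%) and CACTTAA for NKX2 (2.46%), TGACAG for MEIS and TGIF (15.8%), TGATTNAT for PBX (2.83%), GCCNNNGGC for TFAP2 (23.2%), AACNNGTT for GRHL (3.53%), GCGTGGG for EGR and WT1 (6.98%), TTGGCA for NFI (12.6%), TTGCNNAA for CEBP (10.5%), TGTGGTT for RUNX (4.28%), CCGGAAG for ETS (10.2%), GGGNGTGG for KLF (17.2%) and AAATCAATA for ONECUT (0.239%). The SOX and HNF4 motifs can overlap each other, as can the HNF4 and nuclear receptor motifs.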

Additional observations from a re-analysis of the deposited data

How the results depend on the processing

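The number of hAFE-only distal regions followed the limits set. Against 1417, it was 310, 743 and 3533 with strong peaks numbered at most 40000, 60000 and 120000, and 5703 with strong defined by a −log10 q of at least 5. With absence defined as no peak numbered at most 200000 it was 2474, and as no strong peak 6985. It was 9152 without the 4 re-analysed libraries, and 856 with no peak within 1 kb in the other 5 libraries, an alternative chosen after seeing the data. Leaving out each library in turn gave 1558 to 4324, with 3026 without hAFE replicate 1, 4324 without hAFE replicate 2, 2835 without the hPFE library and 2041 without hDE replicate 2. Each such choice asks for fewer libraries. Genes with an assigned region numbered 182 and 1854 with the limits 40000 and 120000, and 1525 and 2340 without hAFE replicate 1 and 2, the only libraries left out for this number. The share inside genes ranged from 42.5% to 47.3% without an hAFE library. The share found again by a peak of any strength was 94.9% and 64.9% (chosen in replicate 1) and 97.4% and 76.5% (replicate 2) at 40000 and 120000.

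The difference in surrounding open regions, 0.142, turned to -0.0397 at 40000 (p = 0.905, exact permutation test) and ranged from -0.127, without hAFE replicate 1, to 0.356 without a library. With the replicate number as a block, p was 0.833. Leaving out a library allows no p under 0.167 (1 hAFE library against 5) or 0.0667 (2 against 4), and the block none under 0.0833, so these cannot pass 0.05 and say nothing of stability. The numbers did not pair the libraries, since the deviations of replicate 1 from replicate 2 over 149700 distal regions correlated at -0.0371 to 0.0307 between stages. The cause of these changes was not tested. Motif shares and GC content of the regions, planned with their alternatives, were not run because they need a genome. Peak lists limited in number, and the depth of each library, limit what absence can show.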
